A study of Rattus norvegicus with 8 samples.

Results

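Chemokines are small secreted proteins that bind G protein-coupled receptors on leukocytes and set the direction in which those cells crawl. Most are named by the spacing of their first cysteines as CCL or CXCL ligands, and their receptors as CCR or CXCR, with CX3CL1 and CX3CR1 as a pair of their own. In the liver they are known to come from Kupffer cells, sinusoidal endothelium, stellate cells, bile duct cells and stressed hepatocytes, and to draw monocytes, neutrophils and lymphocytes into injured or regrowing tissue. Every probe on the array whose gene name begins with Ccl, Cxcl, Ccr, Cxcr or Cx3c, followed by its number or letter code, was taken, with no regard to its signal. The 48 genes described here, of 36174 gene names, are 33 ligands and 15 receptors, read by 65 of the 45598 probes at 123 of 58717 spots. No member passed the adjusted threshold in any of the 3 comparisons. Within that limit, Ccl19 and Cxcl12 were lower in mature hepatocytes than in control progenitor clusters, and Ccl6 and Ccl24 were higher there. In clusters from livers given bone marrow cells, 1 probe of Ccr9 was higher and 1 of Ccl22 lower than in control clusters. At an unadjusted p under 0.05 from limma, the members' share was near that of all probes in the first comparison (20% against 19.2%). In the second it was below (5.71% against 16.6%).

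The samples came from female F344 rats treated with retrorsine, an alkaloid that blocks the division of hepatocytes, and then given a partial hepatectomy (Ret/PH). In such livers, clusters of small hepatocyte-like progenitor cells (SHPCs) regrow the tissue. SHPC clusters were cut by laser microdissection from 3 samples of control Ret/PH livers. Another 3 samples came from livers that had received bone marrow-derived mesenchymal cells (BM-MCs) of male rats through the spleen. Mature hepatocytes (MHs) were cut for 2 samples, whose titles do not give the liver of origin. The study's discussion of the arrays speaks of MHs of livers given BM-MCs. The labels give the rats as dipeptidylpeptidase IV positive, whereas the methods give the recipients as negative and the donors as positive. Neither labels nor methods link samples to particular animals, and the p-values reflect variation among samples that could be of technical origin. Cut tissue holds every cell within the outline, and fewer cells of a type cannot be told apart from less RNA per cell.

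Each sample was hybridised to one 1-colour array, all 8 on 1 slide in 1 scan. Values are log2 signals relative to the 75th percentile of the array, so that 0 is the level of that percentile, and a difference of 1 between groups is a 2-fold change. Between 57.0% and 61.5% of spots were well above background and none was saturated. For control SHPC replicate 2 only part of the scanner output was at hand, and background marks were counted on the other 7 arrays. The 2 MH samples lay with control SHPC replicates 1 and 2 in one set of 4 arrays, and control SHPC replicate 3 lay with the 3 BM-MC samples in the other. Only control SHPC replicate 3 therefore links position on the slide to the BM-MC comparison. The 10 hepatocyte markers, Alb and Hnf4a among them, were all well above background on those 7 arrays, with summed levels of 774 to 986 times the 75th percentile and overlap between all groups. Single markers differed within that sum. In MHs Cyp2e1 was higher than in control SHPCs by 1.23, and Apoa1, Cps1 and Tat differed by -0.73, -0.92 and -1.04, without overlap (limma, unadjusted p from 0.0048 to 0.033, adjusted p from 0.13 to 0.23).

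Ligands were seen more widely than receptors. Of the 33 ligand genes, 19 were well above background on every one of the 7 arrays, 5 on some and 9 on none. Of the 15 receptor genes, 3 were on every array, 3 on some and 9 on none. Counted by probe, 53.8% of member probes against 50.7% of all probes were well above background on at least 3 arrays. These 35 probes, of 21 ligand and 5 receptor genes, were tested. Of the other 22 genes, 18 were on no array, which gives only an upper bound, and 4 were on too few arrays to be tested.

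**Figure D1:**
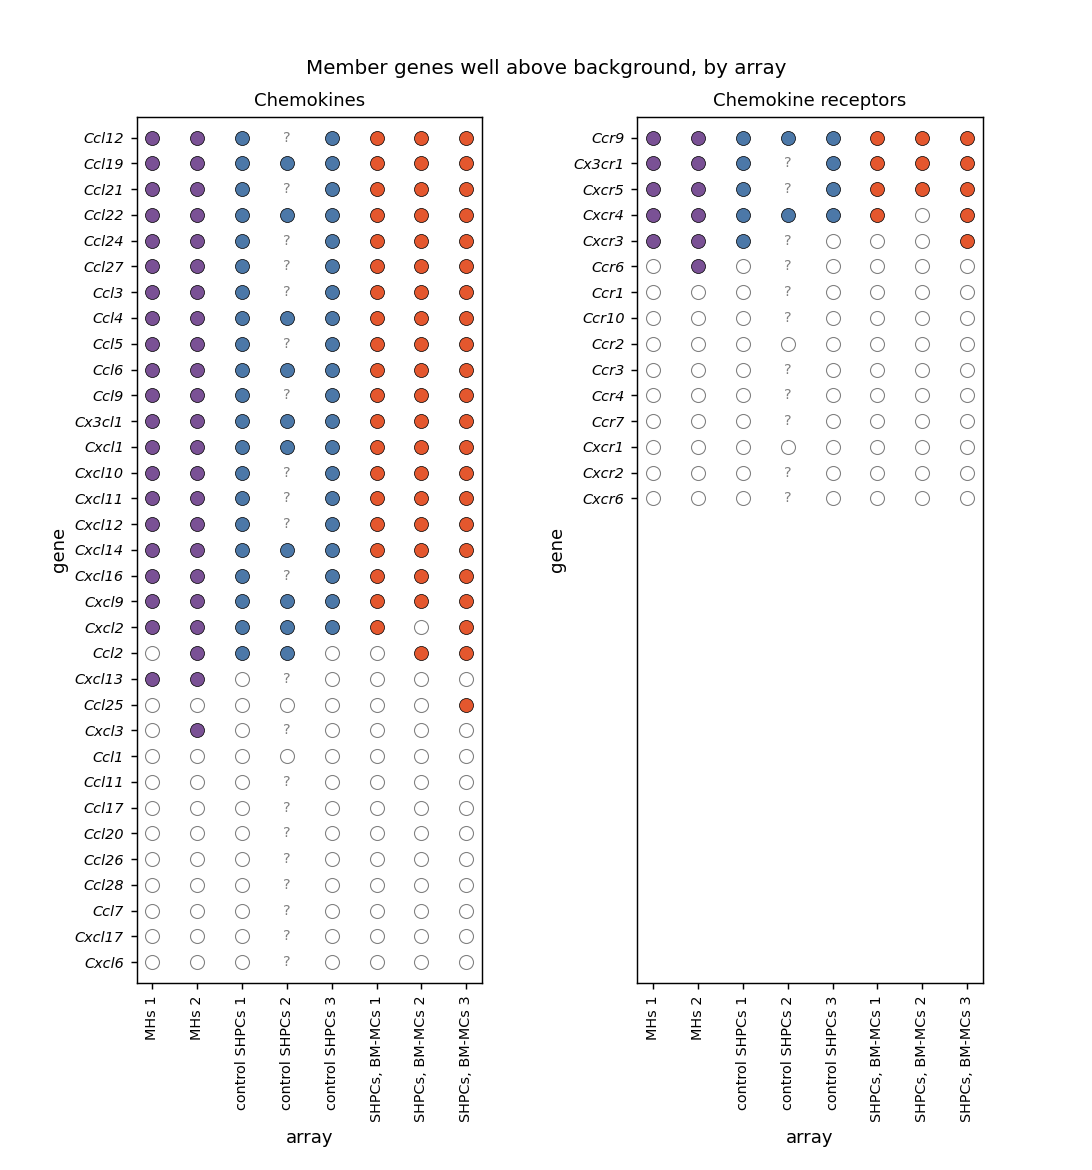
Member genes (rows) well above background on each array (columns), with ligands on the left and receptors on the right. A filled circle marks at least 1 probe of the gene well above background, an open circle none, and a question mark that control SHPC replicate 2 has no mark for it. Of the 33 ligand rows, 19 are filled on all 7 arrays with complete marks, while 9 of the 15 receptor rows are empty.

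The ligands are given by their clusters in the genome, on the rn4 build that the array's headers name. On chromosome 10 between 71.61 and 71.76 Mb, all 5 genes of the macrophage inflammatory group, Ccl3, Ccl4, Ccl5, Ccl6 and Ccl9, were on every array. In the neighbouring monocyte chemoattractant group at 70.26 to 70.38 Mb, Ccl12 was on every array and Ccl2 on 4, while Ccl1, Ccl7 and Ccl11 were on none. On chromosome 14 the interferon-inducible ligands Cxcl9, Cxcl10 and Cxcl11, at 17.25 to 17.29 Mb, were all on every array. The neutrophil-attracting group at 18.68 to 18.83 Mb was mixed, with Cxcl1 on every array, Cxcl2 on 6, Cxcl3 on 1 and Cxcl6 on none. The lymphoid homing ligands Ccl19 and Ccl21 and the epithelial ligand Ccl27, on chromosome 5 at 59.2 to 59.24 Mb, were all on every array. Also on every array were Cx3cl1, Ccl22 and Ccl24, and the single genes Cxcl12, Cxcl14 and Cxcl16. Ccl17, beside Cx3cl1 and Ccl22, and Ccl26, beside Ccl24, were on none.

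Several ligands were measured on arrays that did not show their usual receptor above background. Cxcr1 and Cxcr2, the neutrophil receptors for Cxcl1 and Cxcl2, were on no array. Neither was Ccr7, the receptor of Ccl19 and Ccl21, nor Ccr4, which binds Ccl22. The monocyte receptors Ccr1 and Ccr2, the eosinophil receptor Ccr3 of Ccl24, and Cxcr6, which binds Cxcl16, were likewise on none. Ccr10, which binds Ccl27, was on none. Ccr6 was only on MH replicate 2, and its ligand Ccl20 was itself on no array. The receptors seen on every array by at least 1 probe were Cx3cr1 (ligand Cx3cl1), Ccr9 and Cxcr5. Cxcr4, the receptor of Cxcl12, was on 6 arrays and Cxcr3, which binds Cxcl9, Cxcl10 and Cxcl11, on 4. A receptor below background here has a bound and not a measured absence.

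Cxcl13, the ligand of Cxcr5 that guides B cells, was the one ligand seen in every sample of 1 group and in no other group. It was at -3.73 and -5.92 in the 2 MH samples and well above background in both. It lay at -7.69, -8.03 and -7.53 in control SHPCs and at -6.9, -7.25 and -7.49 with BM-MCs, well above background in none of the SHPC samples that have marks. Setting each dim array no lower than its faintest single spot that was marked well above background, MHs were at least 2.1-fold higher than control SHPCs and at least 1.92-fold higher than SHPCs with BM-MCs. Both bounds rest on MH replicate 1, since MH replicate 2 was not above the mean of those limits in either SHPC group. It was on too few arrays to be tested, and was chosen for description after its values were seen. Ccl25, the ligand of Ccr9, passed background only in BM-MC replicate 3, and Cxcl3 only in MH replicate 2.

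For receptors above all, the answer depended on which probe was read, so the first 30 bases of the 60-base probes that disagree are shown for Ccr9 and Ccl22, whose results below turn on the probe, and for Cxcr5. All are in lower case, with no stretch marked.
Ccr9 A_64_P119901, plus strand, chr8:128541908-128541937: tgtctgtaacttcagttgcagaggatctga
Ccr9 A_44_P411936, plus strand, chr8:128541057-128541086: cccaccaaaagcttagtgacatccacctca
Ccl22 A_44_P1160818, given no position by the array: cctgagggtcacctcctctcctacttctgg
Ccl22 A_64_P157748, minus strand, chr19:10697653-10697682: aatttaaaactcactcttgcttccctggag
Cxcr5 A_64_P119981, minus strand, chr8:47485178-47485207: tctctctgagtcagagaacgctacttctct
Cxcr5 A_44_P1108180, minus strand, chr8:47483729-47483758: tacagtacaggctgcacagagacccccgga

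For Ccr9, the first probe was well above background on all 7 arrays and the second on none, at -7.2 to -8.36. Cxcr5 split in the same way, with A_44_P1108180 on all 7 arrays and A_64_P119981 on none. The third probe name of Ccl22, A_44_P1159750, carries the same 30 bases as A_64_P157748. One of 2 Cx3cr1 probes, A_64_P008406, shared 20 bases with 53 probes of other names. These genes are therefore given by probe.

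MHs were compared with control SHPCs to see how the regrowing clusters differ from established parenchyma in chemokine expression. Ccl19, Cxcl12 by its strongest probe and its receptor Cxcr4 had lower levels in MHs, without overlap with control SHPCs, and Ccl21 had a lower mean with overlap. Ccl6 and Ccl24, which macrophages are known to express, had higher levels in MHs. Of the 35 member probes, 0 passed limma at an adjusted p under 0.05, against 1.13% of all 23111 probes tested (0.216% higher and 0.917% lower). At an unadjusted p under 0.05, 7 member probes differed (20%, against 19.2% of all probes), a share near the background. Of these, 2 were higher in MHs, where 11% of all probes were, and 5 were lower, where 8.21% of all probes were. The groups did not overlap for 11 member probes (31.4%, against 41.4% of all), 3 of them higher in MHs (22.7% of all) and 8 lower (18.7% of all). The median log2 fold change of the members was -0.213, against 0.032 over all probes, and the members' own differences ran from -1.69 to 0.63.

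Ccl19, which guides naive T cells and dendritic cells through Ccr7, had the lowest p of the members (its probe lies at chr5:59221790-59221849 on the minus strand). Its log2 level was -2.21 and -1.71 in MHs, -0.21, 0.04 and -0.98 in control SHPCs, and -0.81, -0.95 and -0.5 with BM-MCs. Both MH samples were below all 6 SHPC samples, and the SHPC groups overlapped. The log2 fold change of MHs over control SHPCs was -1.57 (standard error 0.32, unadjusted p = 0.0013, adjusted p = 0.075 from limma), which is 0.336 of the control level. Without control SHPC replicate 3, the lowest control, it was -1.87 and passed (adjusted p = 0.022 from limma), and across all settings and samples left out its adjusted p ran from 0.022 to 0.34.

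Ccl21 lies beside Ccl19 and signals through the same receptor. It was at -3.86 and -1.53 in MHs, at -0.76, -0.7 and -1.55 in control SHPCs, and at -1.8, -1.36 and -0.88 with BM-MCs. MH replicate 1 stood far below every other sample, while MH replicate 2 was level with control SHPC replicate 3. The difference of -1.69 (standard error 0.64, adjusted p = 0.23 from limma) rested on that sample, being -0.53 without MH replicate 1 and -2.85 without MH replicate 2. Ccl27, the remaining ligand of this locus, had 3 tested probes, with differences from -0.25 to 0.07.

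Cxcl12 holds stem and progenitor cells in their niches through Cxcr4. By its strongest probe (chr4:153516205-153516264, plus strand) its log2 level was 2.91 and 2.64 in MHs, 3.53, 3.39 and 3.91 in control SHPCs, and 3.1, 3.34 and 3.84 with BM-MCs. Both MH samples were below all SHPC samples. The log2 fold change over control SHPCs was -0.83 (standard error 0.25, unadjusted p = 0.011, adjusted p = 0.16 from limma). Its other 2 probes had the same direction, at -0.62, with overlap between the groups (-0.32 without MH replicate 2), and at -0.25. Cxcr4 was at -5.66 and -5.52 in MHs, at -4.94, -5.27 and -5.14 in control SHPCs, and at -5.1, -5.71 and -5.35 with BM-MCs. Its difference of -0.48 (adjusted p = 0.25 from limma) was measured near background, since BM-MC replicate 2 was not well above it.

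Ccl6, a monocyte attractant of macrophages, was higher in MHs by both of its probes. By A_64_P095920 it was at 2.78 and 2.97 in MHs, at 2.53, 2.53 and 1.91 in control SHPCs, and at 2.54, 2.39 and 2.02 with BM-MCs. Both MH samples were above all 6 others. Ccl6 overlaps a long noncoding RNA gene in the GRCr8 annotation, and its values are uncertain to that extent. The differences from control SHPCs were 0.55 by this probe and 0.63 by A_44_P1156652 (adjusted p = 0.27 and 0.19 from limma). With single samples left out they ran from 0.34 to 0.65 and from 0.45 to 0.74. Ccl24, a ligand of the eosinophil receptor Ccr3, was at -4.02 and -4.34 in MHs, at -4.5, -4.72 and -5.21 in control SHPCs, and at -4.63, -4.1 and -4.57 with BM-MCs. MHs were above every control, with a difference of 0.63 (adjusted p = 0.24 from limma), while BM-MC replicate 2 lay between the 2 MH samples. Across the processing settings this difference of Ccl24 ran from 0.2 to 0.72.

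Ccl3, Ccl4 and Ccl5, which draw macrophages and effector T cells, did not show one direction in this comparison, with differences of 0.45, 0.15 and -0.33, each with overlap between the groups.

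**Figure D2:**
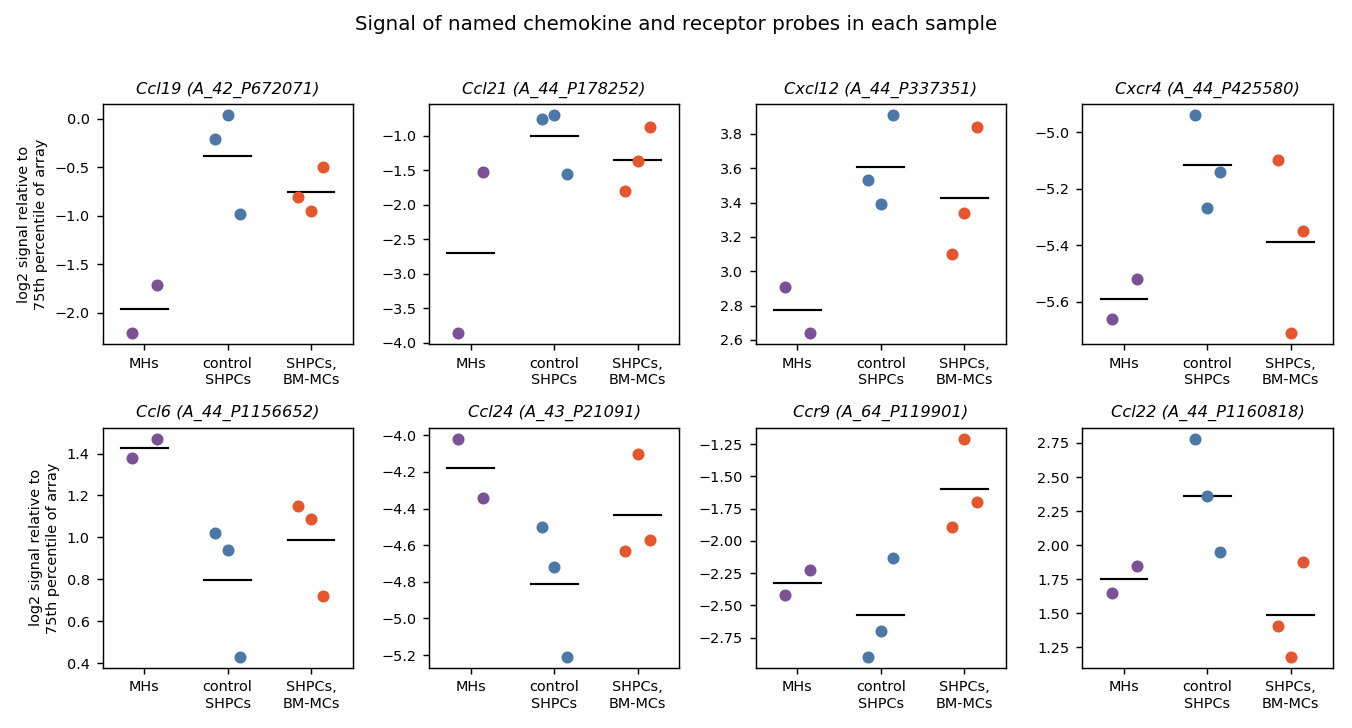
Log2 signal relative to the 75th percentile of the array (y axis, a separate scale in each panel) for 8 probes of named members in 2 MH, 3 control SHPC and 3 BM-MC SHPC samples. Points are samples and lines are group means. The MH samples sit below all others for Ccl19 and Cxcl12 and above all others for Ccl6, and the BM-MC samples sit above all others for Ccr9.

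Macrophage markers moved with these members. All 12 markers of Kupffer cells and macrophages were tested, and 11 were higher in MHs than in control SHPCs, 7 of them at an unadjusted p under 0.05 and none at an adjusted p under 0.05. Cd68 was higher by 0.84 and Clec4f, particular to Kupffer cells, by 0.63 (adjusted p = 0.15 and 0.24 from limma). The summed level of the list was 96.5 to 100.0 times the 75th percentile in MHs, 49.4 to 71.9 in control SHPCs and 61.5 to 86.8 with BM-MCs, with the lowest value in control SHPC replicate 3. Its part in the values of Ccl6 and Ccl24 was not tested. Bile duct markers moved with the lower members, since 5 of 6 tested were lower in MHs, 2 at an unadjusted p under 0.05. Their summed level was 0.317 to 0.374 in MHs, 0.441 to 0.484 in control SHPCs and 0.435 to 0.575 with BM-MCs. Of 9 stellate cell and fibroblast markers, Lrat and Reln were higher in MHs and Pdgfrb, Col1a1 and Dcn lower at an unadjusted p under 0.05, and the summed level was 8.73 to 9.16 in MHs, above the 7.48 to 8.11 of control SHPCs, and 7.43 to 11.4 with BM-MCs, overlapping both. All 8 tested T and NK cell markers were lower in MHs than in controls, 2 of them at an unadjusted p under 0.05, Cd3d by -0.42 and Cd3g by -0.89 (adjusted p = 0.14 and 0.082 from limma). Their summed level, 3.25 to 3.74 in MHs and 3.54 to 4.07 in control SHPCs, overlapped. Of 7 sinusoidal endothelial markers tested, 5 were higher in MHs, Stab2 by 0.48 and Fcgr2b by 0.29 without overlap (limma, unadjusted p = 0.024 and 0.039, adjusted p = 0.2 and 0.24), while the summed levels, 19.5 to 23.1 in MHs and 18.5 to 19.6 in controls, overlapped. The part of these cells in the values of Ccl19, Ccl21 and Cxcl12 was not tested.

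**Figure D3:**
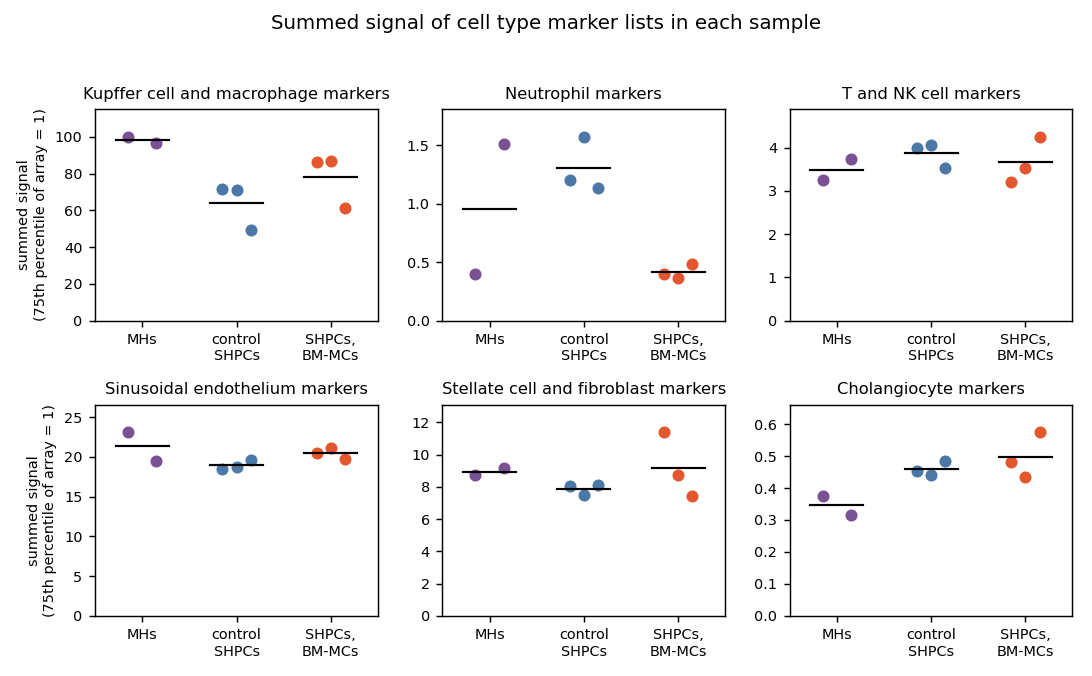
Summed signal of 6 lists of cell type markers in each sample (y axis, linear, from 0, where 1 is the 75th percentile of the array), with lines at the group means. Macrophage markers were highest in the MHs at 96.5 to 100.0. Neutrophil markers lay between 0.363 and 0.481 in all 3 BM-MC samples, at 0.394 in MH replicate 1 and at 1.51 in MH replicate 2.

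SHPCs from livers with and without BM-MC transplantation were compared to see what the transplanted cells changed in the clusters. Ccr9 and Ccl22, each by 1 probe, were the only members at an unadjusted p under 0.05 from limma, a smaller share than over all probes. Of the 35 member probes, 0 passed limma at an adjusted p under 0.05, against 0.0216% of all probes (0.0216% higher and 0% lower). At an unadjusted p under 0.05, 2 member probes differed (5.71%, against 16.6% of all), Ccr9 higher (10.7% of all) and Ccl22 lower (5.92% of all) with BM-MCs. The groups did not overlap for the same 2 member probes (5.71%, against 24.7% of all), 1 higher, of Ccr9 (13.1% of all), and 1 lower, of Ccl22 (11.7% of all). The median log2 fold change was -0.082 over the members and 0.018 over all probes, and the members ran from -0.87 to 0.98. Without control SHPC replicate 3, 7 of 35 member probes had an unadjusted p under 0.05, against 19.4% of all probes, and still none passed. With position on the slide as a block, only control SHPC replicate 3 is set against the BM-MC samples. The members' median was then 0.161 and that of all probes -0.021.

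Ccr9 is the receptor that brings T cells to the small intestine and plasmacytoid dendritic cells to tissue. Its level by A_64_P119901 was -1.89, -1.21 and -1.7 with BM-MCs, -2.9, -2.7 and -2.13 in control SHPCs, and -2.42 and -2.23 in MHs. All 3 BM-MC samples were above all 5 others. The log2 fold change over control SHPCs was 0.98 (standard error 0.26, unadjusted p = 0.0089, adjusted p = 0.19 from limma), or 1.97-fold. Its other probe stayed below background in every sample with marks. With position on the slide as a block, the same difference was 0.53 (unadjusted p = 0.12, adjusted p = 0.58 from limma).

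Ccl22, a ligand of regulatory and type 2 helper T cells that macrophages and dendritic cells release, was read by A_44_P1160818 at 1.41, 1.18 and 1.88 with BM-MCs, at 2.78, 2.36 and 1.95 in control SHPCs, and at 1.65 and 1.85 in MHs. Every BM-MC sample and every MH sample was below every control. The log2 fold change with BM-MCs was -0.87 (standard error 0.27, unadjusted p = 0.016, adjusted p = 0.23 from limma), which is 0.546 of the control level. The other 2 probe names gave -0.19 and -0.39 with overlap between the groups. They read -5.13 to -4.01 over the 8 samples, against 1.18 to 2.78 for A_44_P1160818, which the array gives no position. Level and size of the difference thus depended on the probe, and whether A_44_P1160818 reads the same transcript was not tested. With position on the slide as a block, the difference by A_44_P1160818 was -0.46 (unadjusted p = 0.21, adjusted p = 0.65 from limma). The partner Ccr4 was below background throughout.

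The other genes named by the rule differed by 0.37 for Ccl24, 0.16 for Ccl9, -0.27 for Cxcr4, -0.27 for Ccl27 by A_44_P1105577 and -0.37 for Ccl19 as log2 fold changes, with unadjusted p of 0.16 to 0.24 from limma and overlap between the groups. Ccl19 turned to 0.23 with the slide block and Ccl9 to -0.03 with median scaling. Ccl19 was -0.66 (unadjusted p = 0.013, adjusted p = 0.14 from limma) once control SHPC replicate 3 was left out, where Ccl27 was -0.09 and Ccl24 0.17. Leaving out control SHPC replicate 2 gave -0.16 for Ccl19, and Cxcr4 was -0.41 and -0.11 without BM-MC replicates 1 and 2. Ccl9, a macrophage ligand of Ccr1, was at 3.85, 4.04 and 3.96 with BM-MCs, at 3.78, 3.69 and 3.89 in control SHPCs, and at 4.29 and 3.84 in MHs. MH replicate 1 was the highest of the 8 samples. Ccl27, by its brightest probe A_42_P683840, was at -1.38, -1.25 and -0.95 with BM-MCs, at -1.18, -1.13 and -0.68 in control SHPCs, and at -1.15 and -1.33 in MHs. Control SHPC replicate 3 was the highest sample, and all 3 groups overlapped. The tested neutrophil markers were lower with BM-MCs than in controls. S100a8, S100a9 and Retnlg, the 3 tested of 6 neutrophil markers, differed from controls by -1.46, -1.84 and -1.3 as log2 fold changes (limma, adjusted p = 0.12, 0.068 and 0.086), while Mpo, Csf3r and Elane were well above background on no array. The summed level of the 3 tested was 0.363 to 0.481 with BM-MCs and 1.13 to 1.57 in control SHPCs, without overlap. The MHs were split, with 0.394 in replicate 1, within the BM-MC range, and 1.51 in replicate 2, within that of controls. Sinusoidal endothelial markers were narrowly apart, with a summed level of 19.7 to 21.1 with BM-MCs and 18.5 to 19.6 in controls. Of 7 tested, 5 were higher with BM-MCs and 2 lower, Vwf by -0.22 and Lyve1 by -0.07. Stab2 and Kdr were higher in every BM-MC sample than in every control, by 0.37 and 0.32 (limma, unadjusted p = 0.048 and 0.038, adjusted p = 0.3 and 0.28). The neutrophil ligand Cxcl1 differed by 0.1 and Cxcl2 by 0.29 (adjusted p = 0.9 and 0.5 from limma). The summed T and NK cell level, 3.2 to 4.25 with BM-MCs and 3.54 to 4.07 in controls, overlapped. Within that list, 5 of the 8 tested were lower with BM-MCs and 3 higher, Nkg7, Gzma and Gzmb by 0.12, 0.01 and 0.22. Cd3d and Cd3g were lower in every BM-MC sample than in every control, by -0.3 and -0.58 (limma, unadjusted p = 0.024 and 0.014, adjusted p = 0.25 and 0.22), and Cd3e was on no array. The part of any of these cells in the values of Ccl22 and Ccr9 was not tested.

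SHPCs with BM-MCs were also set against MHs, a comparison that shares samples with the others and so is not independent of them. Of the 35 member probes, 0 passed limma at an adjusted p under 0.05, against 0.338% of all probes (0.32% higher and 0.0173% lower). At an unadjusted p under 0.05, 4 member probes differed (11.4%, against 13.3% of all). Ccl19, Cxcl12 and Ccr9 were higher than in MHs (7.33% of all) and Ccl6 was lower (5.95% of all). The groups did not overlap for 11 (31.4%, against 32.4% of all), 8 of them higher (16.1% of all) and 3 lower (16.3% of all). The median was 0.083 for the members and 0.003 for all probes.

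Ccl19 exceeded MHs by 1.21 (unadjusted p = 0.0058, adjusted p = 0.24 from limma), Cxcl12 by 0.65 (adjusted p = 0.35) and Ccr9 by 0.73 (adjusted p = 0.34). The 3 BM-MC samples were above both MH samples for each of them. With position on the slide as a block, Ccl19 was 2.1, Cxcl12 0.21 and Ccr9 0.06. Ccl6 differed by -0.56 and -0.44 by its 2 probes, and Cxcl16, a ligand bound to the surface of macrophages and endothelium, by -0.55, each with every BM-MC sample below both MH samples. The slide block turned all of these, to 0.06 and 0.11 for Ccl6 and 0.34 for Cxcl16. Macrophage markers moved in the same direction, 11 of 12 being lower than in MHs, 3 at an unadjusted p under 0.05, with summed levels of 61.5 to 86.8 against 96.5 to 100.0, and their part was not tested. With the higher members, 5 of 6 bile duct markers were higher than in MHs, none at an unadjusted p under 0.05, with summed levels of 0.435 to 0.575 against 0.317 to 0.374. Of 9 stellate cell and fibroblast markers 7 were higher, 4 of them (Des, Pdgfrb, Col1a1 and Dcn) at an unadjusted p under 0.05, while the summed levels overlapped, and the part of these cells in Ccl19 and Cxcl12 was not tested. The levels of Cxcl16 were -0.78, -0.88 and -1.2 with BM-MCs, -0.7 and -0.11 in MHs, and -0.54, -0.58 and -1.44 in control SHPCs, which covered the range of the BM-MC samples. Its difference rested on MH replicate 2, being -0.25 without it and -0.84 without MH replicate 1. Ccl2, the main attractant of inflammatory monocytes, was at -5.81, -5.82 and -5.09 with BM-MCs and at -7.11 and -6.77 in MHs. Its difference of 1.36 (adjusted p = 0.43 from limma) was measured at the edge of background, since MH replicate 1, control SHPC replicate 3 and BM-MC replicate 1 were not well above it, and it was 0.74 with dim spots raised to the floor, 0.4 with normexp background correction and 3.63 with the slide position as a block. The 3 controls were at -4.89, -5.81 and -7.62, the last with only a bound.

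Among the rest of the chemokine system, the lowest p in each comparison belonged to a decoy receptor, Ackr3 or Ackr4. These atypical receptors bind and take up chemokines without signalling through G proteins. Of 32 other genes of the system, 25 were tested. In MHs against control SHPCs, 5 were higher and 0 lower at an unadjusted p under 0.05 (11% and 8.21% of all probes). With BM-MCs 3 were higher and 1 lower than in controls (10.7% and 5.92% of all). Against MHs, BM-MC clusters had 2 higher and 3 lower (7.33% and 5.95% of all). None passed at an adjusted p under 0.05 in any comparison.

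Ackr4, which takes up Ccl19, Ccl21 and Ccl25, was at 1.11 and 0.62 in MHs, at -0.16, -0.36 and 0.07 in control SHPCs, and at 0.23, 0.12 and -0.32 with BM-MCs. Both MH samples were above all SHPC samples, the reverse of Ccl19. The difference from controls was 1.02 (standard error 0.23, unadjusted p = 0.0027, adjusted p = 0.1 from limma), and that of SHPCs with BM-MCs from MHs was -0.86 (adjusted p = 0.25). Ackr2, which takes up inflammatory CC chemokines, was at -1.59 and -1.62 in MHs, at -2.7, -3.1 and -2.35 in control SHPCs, and at -1.77, -2.22 and -2.89 with BM-MCs. It was higher in MHs than in every control, by 1.11 (adjusted p = 0.16 from limma), and the BM-MC samples overlapped the controls.

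Ackr3, which takes up Cxcl12, was at -5.05 and -5.14 in BM-MC replicates 2 and 3 and at -5.94, -5.86 and -6.29 in control SHPCs. BM-MC replicate 1 was left out of this fit because its spots were marked as outliers, and the remaining 2 samples were above all controls. The difference was 0.94 (unadjusted p = 0.0024, adjusted p = 0.14 from limma), 2.46 with an unadjusted p = 0.089 where the outlier spots were kept, 0.71 with dim spots raised to the floor, and 0.29 with an unadjusted p = 0.099 under normexp background correction. It was measured near background, being well above it on 5 of 7 arrays. Among signalling partners, Plcb2, a phospholipase downstream of the receptors, was higher than in controls by 1.14 in MHs and by 1.08 with BM-MCs. These were 0.35 and 0.34 under normexp background correction, and control SHPC replicate 3, at -5.87, lay under its background limit. Arrb2, the arrestin that internalises them, was higher with BM-MCs by 0.43. It ran from 0.28 to 0.52 with single samples left out and from 0.24 to 0.47 across processing settings. Vav1 and Ptk2b, which relay receptor signals in leukocytes, were higher in MHs by 0.63 and 0.39. The platelet chemokine Pf4 differed by -0.35 with BM-MCs. The adjusted p of these genes lay between 0.22 and 0.29.

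Of 14 cytokines and factors that switch chemokine genes on or hold that switch in check, 12 were tested, and Il6 and Ifng were well above background on no array. Il1a was at 0.36, 0.28 and 0.09 with BM-MCs, at -0.39, -0.2 and -0.32 in control SHPCs, and at -0.35 and -0.05 in MHs. All 3 BM-MC samples were above the 5 others, with a difference from controls of 0.55 (unadjusted p = 0.0035, adjusted p = 0.15 from limma). By the brightest probe of each gene, it was the only one of the 12 at an unadjusted p under 0.05 in any comparison. Of 10 adhesion molecules of leukocyte entry, 7 were tested, and the integrin chains Itgam and Itgb2 of myeloid cells were higher in MHs than in controls by 0.56 and 0.83 (adjusted p = 0.23 and 0.16 from limma). The difference of Itgam rested on MH replicate 2, being 0.2 without it. Selp was on no array.

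Promoter sequences were searched for letters that known regulators of chemokine genes bind. Of the 48 genes, 37 had a promoter in RefSeq (GRCr8, a window around the start of the gene). The letters GGAANTTCC, which read the same on both strands and lie within the sequences that NF-kB proteins are known to bind, were in 5 of the 37 (13.5%) and in 0.872% of all 33469 promoters. A longer kappaB site of the immunoglobulin light chain type, searched on both strands, was in 0 of the 37 and in 0.111% of all. The matches are shown in capitals for the interferon-inducible and neutrophil-attracting ligands, since these clusters hold 4 of the 5 genes, the other being Ccr3.
Cxcl10, plus strand, chr14:15988870-15988899: caggaaagagGGAAATTCCaagctcatggg
Cxcl10, plus strand, chr14:15988929-15988958: ttaacatcagGGAACTTCCctcgaaggttg
Cxcl11, plus strand, chr14:15973645-15973674: agtcaagaggGGAAATTCCtgactctctga
Cxcl1, minus strand, chr14:17479385-17479414: ctgtgctccgGGAATTTCCctggcctggag
Cxcl6, minus strand, chr14:17596485-17596514: ccaaggcccgGGAATTTCCccagcatcttc

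Of these 5 genes, Cxcl1, Cxcl10 and Cxcl11 were well above background on every array and Cxcl6 and Ccr3 on none. Their differences between MHs and control SHPCs were -0.68, -0.7 and -0.26, and those with BM-MCs were 0.1, -0.28 and 0.06, none at an unadjusted p under 0.05. The first of these, of Cxcl1, rested on MH replicate 1 at -5.09, while MH replicate 2 at -3.44 lay within the range of the controls. In the GRCr8 annotation Cxcl10 and Cxcl11 overlap Art3, and their values are uncertain to that extent. The same holds for Cxcl16, which overlaps Zmynd15, and for Ccl27, which overlaps Il11ra1 and a long noncoding RNA gene. It holds too for Cxcr5, which overlaps Bcl9l by 3 bases, and for Ccl3 and Cx3cr1, which each overlap a long noncoding RNA gene. A match of letters is a description of the sequence and says nothing of binding in these cells.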

How the data were processed

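The authors deposited one scanner file per array from Agilent Feature Extraction 10.7 and a value table of the same processed signal, an intensity already corrected for background and not scaled between arrays. Signals were read from the value table, and file and table differed by at most 1.19e-06 of a value. One scanner file, that of control SHPC replicate 2, reaches feature 20903 of 62976, and its marks did not enter the filter. Spots marked as outliers were left out, the 75th percentile of each array was subtracted on the log2 scale and spots of one probe were averaged. Probes with a spot well above background on at least 3 of 7 arrays (23111) entered linear models in limma 3.58.1 (R 4.3.3). P-values were adjusted over all of them by Benjamini and Hochberg, with a threshold of 0.05. The comparison of SHPCs used 6 samples and those with MHs all 8. The methods name a Student's test, which was an alternative.

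The members and gene lists were chosen with earlier results of these data known. Values in every sample are given for members that passed, that changed 2-fold without overlap, or that had the 5 lowest p in a direction of a comparison, which took 12 genes. One gene that the name rule takes and one adhesion molecule are not reported here, and the counts leave them out. A gene with several tested probes was given by its brightest, with the others' direction. Names and rn4 positions are those of the array, and sequences are from the scanner files and RefSeq. On simulated data over 22969 probes, 71% of 4-fold and 42% of 2-fold changes were recovered between SHPC groups, 79% and 35% between MHs and controls, and 82% and 48% for BM-MC clusters against MHs. Scaling, background correction, filters, outlier spots, blocks, tests and samples were varied. The number of arrays limits the precision.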

Additional observations from a re-analysis of the deposited data

How the results depend on the processing

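No member probe passed the adjusted threshold in the BM-MC comparisons under any alternative run, and in MHs against control SHPCs 0 to 1 did. The 1 was Ccl19 at -1.87 (adjusted p = 0.022 from limma), with slide set as a block and without control SHPC replicate 3, which leave the same samples to compare. The median of the members moved beyond the spread between samples (0.12) in 7 cases. For BM-MCs against controls it was -0.274 with median scaling (all probes -0.173), 0.038 with no filter on dim probes (all probes 0.13) and 0.161 with the slide set block (all probes -0.021). For MHs against controls it was -0.083 with a mean over the probes of each gene (all genes 0.03). For BM-MCs against MHs it was -0.115 with median scaling (all probes -0.195), 0.285 with no filter (all probes 0.197) and 0.25 with the slide set block (all probes -0.054). With each sample left out it ran from -0.14 to -0.006, from -0.311 to -0.111 and from 0.079 to 0.162. Single genes changed sign in 8 cases. Ccl9 was -0.03 for BM-MCs against controls with median scaling. With the slide set block, Ccl19 was 0.23 and Ccl22 by A_64_P157748 0.03 in that comparison, and Ccl27 was 0.03, Ccl6 0.11 and 0.06 and Cxcl16 0.34 for BM-MCs against MHs, where only control SHPC replicate 3 links the sets. Cklf, at -0.37 there, was 0.5 as a mean over its probes. The causes were not tested.

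Same-numbered SHPC samples correlated at 0.13, 0.078 and 0.17 in their deviations, and control SHPC replicate 2 correlated higher with BM-MC replicate 1 (0.082) than with its own number, so the numbers were not taken to pair samples. With the replicate block, 0 member probes passed and 3 in place of 2 had an unadjusted p under 0.05 for BM-MCs against controls (17.4% of all probes). That count was 1 by the methods' t-test (14.9%) and 8 with the slide set block (10.1%), 3 to 10 for MHs against controls (11.1% to 21.2%) and 1 to 10 for BM-MCs against MHs (6.75% to 20.5%). Among single samples left out, it was 1 without BM-MC replicate 2 and 7 without control SHPC replicate 3 in the first comparison, 3 and 4 without MH replicates 1 and 2 in the second, and 1 without MH replicate 1, 2 without BM-MC replicate 3 and 8 without control SHPC replicate 3 in the third. Well above background on at least 1 array were 30 member genes, on at least 3 arrays 26 and on all 7 arrays 22.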
